A study of Mus musculus with 12 samples.

Results

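Lung capillaries are lined by 2 kinds of endothelial cell (EC), and the genes described here are markers that tell them apart: Car4, Ednrb, Tbx2, Fibin and Prx for aerocytes, and Gpihbp1, Kit, Plvap and Cd93 for general capillary cells. The genes were chosen by name, and each was read from the probe set with a single gene symbol and the highest mean over the 12 arrays. This gave 8 of the 9 listed genes, 4 of each kind, among 18193 genes with such a probe set. Prx, which encodes periaxin, had no single-symbol probe set and was not analysed here.

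ECs were sorted from lungs of NSG mice, an immunodeficient strain, and profiled on Affymetrix GeneChip arrays of the mouse genome. The groups were healthy lungs and lungs taken 1, 2 or 3 weeks after MDA231-LM2 cells had been injected into a vein. This line is a highly metastatic, GFP-carrying derivative of the human breast cancer line MDA-MB-231, and each group has 3 arrays labelled as biological replicates. The sort gated on the EC antigen CD31 and removed blood (CD45, CD11b), epithelial (EpCAM), stromal (CD140a, CD140b) and cancer (GFP) cells. All groups share the NSG strain and the sort, and the labels give no age. The methods give female mice and 1 range of ages for all in vivo work, young adults, without an age for each group. The hosts lack mature lymphocytes and natural killer cells, which limits them as a model of metastasis, and a sort of whole lung mixes ECs inside metastases with ECs outside them.

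In the mouse lung, aerocytes are large, thin cells that face the air space and are specialized for gas exchange. General capillary cells regulate vessel tone and immune traffic and can act as progenitors of both kinds after injury. Signals pass between them, for example from Apln, made by aerocytes, to its receptor Aplnr on general capillary cells. Some members are not exclusive to capillaries: Kit is also a receptor of mast cells, Cd93 is found on myeloid cells, and Plvap is high in venous ECs.

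Values are log2 signals, so a difference of 1 is a 2-fold difference, and signals of different probe sets were not set against each other. The array medians were equal to 2 decimals, at 8.13, and the group means of Fibin lay at percentiles 74.8 to 80.7 of all probe sets, with every other member at 91.3 or higher. The 15 pan-endothelial genes checked, such as Pecam1 and Cdh5, averaged 12.85 or more in every array. At week 3 against healthy, 0 of them passed limma's adjusted p below 0.05, against 5.01% of all genes. At an unadjusted p below 0.05 there were 3, against 21.4%. The 3 were all higher, Emcn by 0.65, Robo4 by 0.35 and Esam by 0.24 (adjusted p = 0.0566, 0.104 and 0.207). Genes of other lung cells were also measured in the sorted cells and moved with time. At week 3, 7 of 11 fibroblast genes and 4 of 7 genes of type 1 alveolar cells fell, and all 7 measured cell cycle genes rose, by a median of 2.22 on the log2 scale. These values stand beside the members below where they touch them.

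The members lie on different chromosomes of the mouse genome (GRCm38.p6, RefSeq), apart from pairs on 2 and 11: Fibin on chromosome 2 from 110360925 to 110362993, Cd93 on 2 from 148436651 to 148443535, Kit on 5 from 75574987 to 75656722, Plvap on 8 from 71497753 to 71511806, Car4 on 11 from 84957754 to 84966054, Tbx2 on 11 from 85832615 to 85841948, Ednrb on 14 from 103814615 to 103844508 and Gpihbp1 on 15 from 75596630 to 75598213. RefSeq promoter windows were at hand for 4 of the 8, Fibin, Kit, Car4 and Ednrb. The 250 bases before the start of Fibin (chr2:110362994-110363243, minus strand) and Kit (chr5:75574737-75574986, plus strand) are shown 5′ to 3′ because these members had the lowest and the highest difference at week 3, with each CpG, the dinucleotide that can be methylated, in capitals.
Fibin: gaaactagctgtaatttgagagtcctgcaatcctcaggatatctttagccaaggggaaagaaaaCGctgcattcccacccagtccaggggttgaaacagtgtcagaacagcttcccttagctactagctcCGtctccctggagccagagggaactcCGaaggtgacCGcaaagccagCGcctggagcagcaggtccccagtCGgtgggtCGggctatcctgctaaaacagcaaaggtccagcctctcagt
Kit: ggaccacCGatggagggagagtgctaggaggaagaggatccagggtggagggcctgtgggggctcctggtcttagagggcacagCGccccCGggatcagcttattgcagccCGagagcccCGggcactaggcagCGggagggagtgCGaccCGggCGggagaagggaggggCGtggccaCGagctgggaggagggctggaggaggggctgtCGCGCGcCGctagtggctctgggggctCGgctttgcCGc
Fibin had 7 CpGs in its window and Kit had 17, with a median of 6 over 32851 such windows (quartiles 2 and 16). No match on either strand was found in the 4 members' windows to the ETS motif CGGAAGT (in 4.92% of all windows), the T-box motif GGTGTGA (3.33%), the FOX motif TGTTTAC (3.17%) or the hypoxia response core ACGTG (16.6%). A missing match says only that these letters are not in this window.

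No member passed the test for a change after cancer cells were injected, in any of the 6 comparisons among the 4 groups. By limma at an adjusted p below 0.05, 0 of 8 passed against healthy at week 1 (0.0495% of all genes), at week 2 (0.242%) and at week 3 (5.01%). At an unadjusted p below 0.05, 0 of 8 passed at week 1 (8.98% of all genes), 0 of 8 at week 2 (10.5%) and 3 of 8 at week 3 (21.4%). Arrays did not overlap with healthy for 3 of 8 at week 1 (16.1% of all genes), 0 of 8 at week 2 (17.7%) and 3 of 8 at week 3 (30.0%). At week 3 the 3 were in both counts Ednrb and Fibin, which were lower, and Kit, which was higher. All 3 weeks were set against the same healthy arrays, so their values are not independent. In bulk samples, fewer cells of a type and less RNA per cell cannot be told apart.

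**Figure D1:**
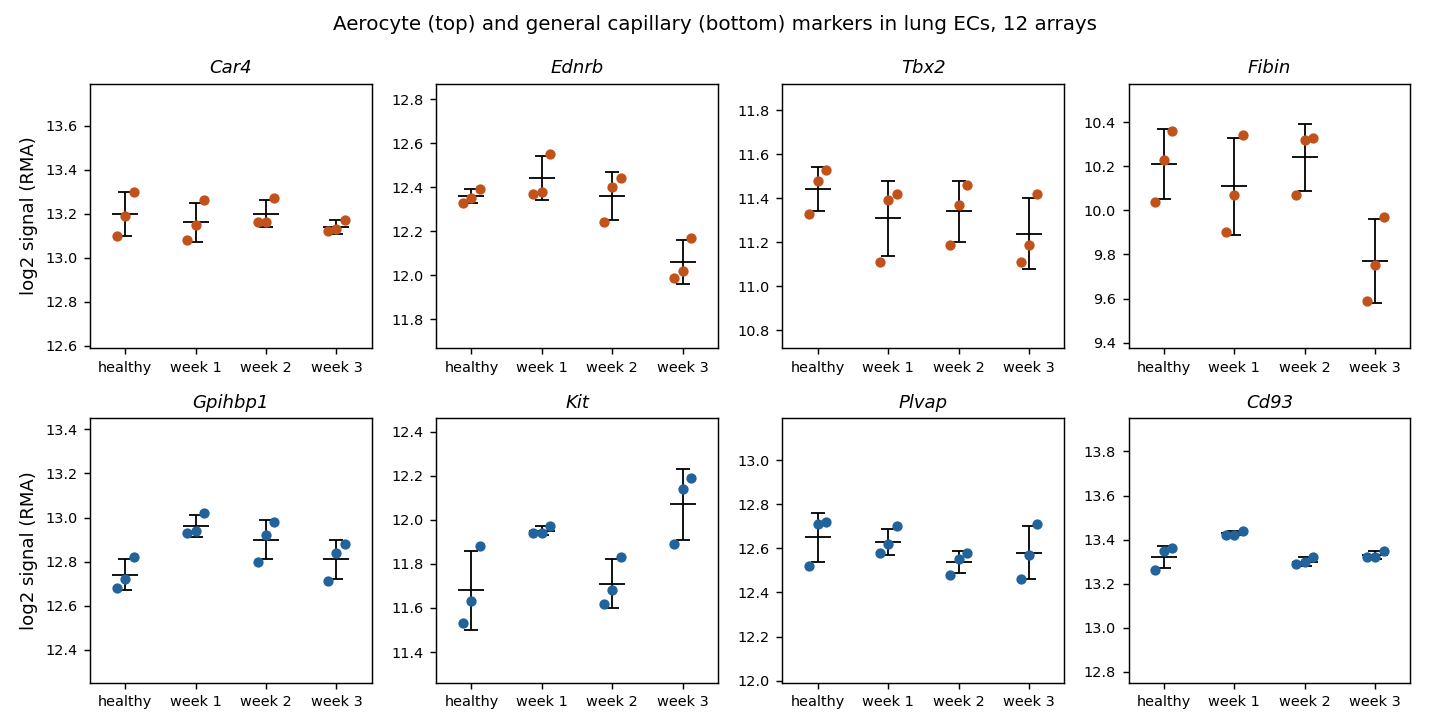
Log2 signal (RMA) of the 4 aerocyte markers (top, orange) and the 4 general capillary markers (bottom, blue) in each of 3 arrays for healthy lungs and weeks 1, 2 and 3, with the mean and SD in black. Every panel spans 1.2 log2 units, and Car4 stayed between 13.08 and 13.3 in all 12 arrays.

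Among the aerocyte markers, Car4 encodes a membrane-anchored carbonic anhydrase, which interconverts carbon dioxide and bicarbonate at the cell surface. Its signals were 13.19, 13.30 and 13.10 in healthy lungs, 13.15, 13.08 and 13.26 at week 1, 13.27, 13.16 and 13.16 at week 2 and 13.13, 13.17 and 13.12 at week 3. All 4 groups overlapped, and the plot of signals by array shows the flat course. The group means spanned 0.06, a smaller range than that of all but 1.40% of genes (median of all genes, 0.29). Week 3 minus healthy was -0.06 (SE 0.10, 95% interval -0.30 to 0.19, limma adjusted p = 0.803). A fall of more than 0.30 lay outside the interval of this probe set only. The second probe set of Car4 differed by -0.17 (SE 0.12, adjusted p = 0.490). Car4 and Cd93 had mean signals above 13, where 0.746% of 134 genes passed at week 3, against 5.13% of the 5613 genes with means between 10 and 13. Whether such strong signals are compressed near the top of the scale was not tested.

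Ednrb encodes endothelin receptor B, which binds and clears endothelin and, in ECs, leads to nitric oxide release. Its signals were 12.33, 12.39 and 12.35 in healthy lungs, 12.38, 12.37 and 12.55 at week 1, 12.40, 12.44 and 12.24 at week 2 and 12.02, 12.17 and 11.99 at week 3. The week 3 arrays were the lowest 3 of the 12, a pattern that 3.99% of all genes showed and no other member. That share counts only this direction, and no member had its week 3 arrays above all others. Week 3 minus healthy was -0.30 (SE 0.10, interval -0.54 to -0.05), or 0.81 times the healthy signal, with an unadjusted p of 0.0236 and an adjusted p of 0.167. Week 3 minus week 2 was also -0.30 (adjusted p = 0.224), and week 3 minus week 1 was -0.37 (adjusted p = 0.249). With a trended and robust variance in limma, the same week 3 minus healthy difference had an adjusted p of 0.041, so the call rests on how the variance is estimated. Weeks 1 and 2 differed from healthy by 0.08 and 0.00, with intervals of -0.19 to 0.35 and -0.24 to 0.24.

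The array carries 2 more probe sets for Ednrb, and both had lower means at week 3. The brighter one had 10.77, 11.44 and 10.96 at week 3, against 11.72, 11.41 and 11.85 in healthy lungs, a difference of -0.60 (SE 0.20, adjusted p = 0.151). The dimmer one had 9.20, 9.60 and 9.11 at week 3, against 9.60, 9.62 and 10.11 in healthy lungs, a difference of -0.48 (SE 0.19, adjusted p = 0.218). In the brighter of these, 1 week 3 array lay within the healthy range, and none of the 3 probe sets passed the threshold.

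**Figure D2:**
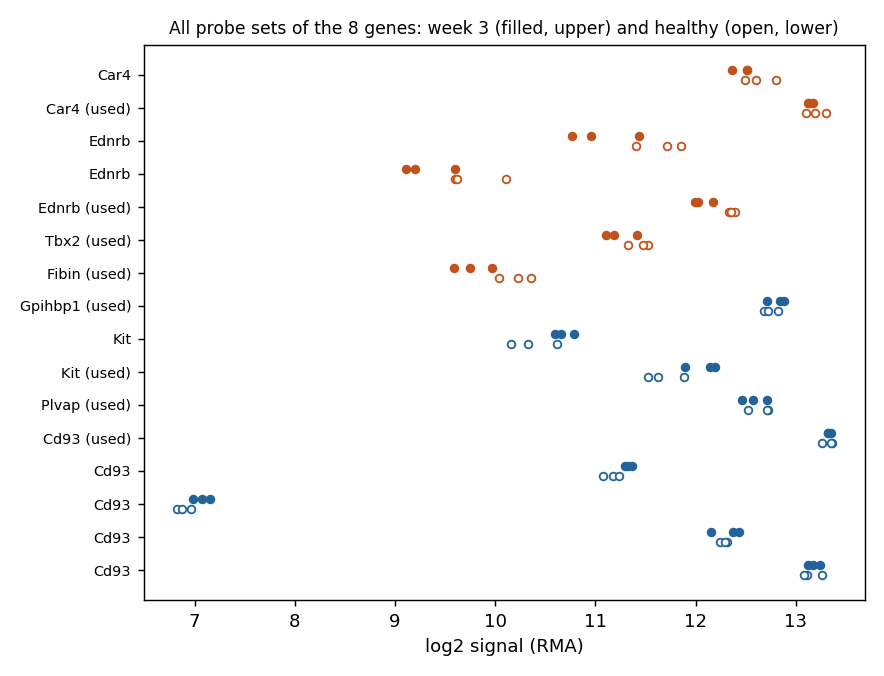
Log2 signal (RMA) on the horizontal axis for all 16 single-symbol probe sets of the 8 genes, with 3 week 3 arrays (filled, upper) and 3 healthy arrays (open, lower) in each row, orange for aerocyte and blue for general capillary markers. "Used" marks the probe set with the highest mean, and the 3 rows of Ednrb all have lower week 3 means.

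Tbx2 encodes a T-box transcription factor. Its signals were 11.53, 11.33 and 11.48 in healthy lungs, 11.11, 11.39 and 11.42 at week 1, 11.46, 11.37 and 11.19 at week 2 and 11.19, 11.42 and 11.11 at week 3. The groups overlapped at every time. Week 3 minus healthy was -0.20 (SE 0.13, interval -0.50 to 0.09, adjusted p = 0.418), and the differences at weeks 1 and 2 were -0.13 and -0.10.

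Fibin encodes a secreted protein named for its part in fin bud initiation in fish. Its signals were 10.04, 10.36 and 10.23 in healthy lungs, 9.90, 10.07 and 10.34 at week 1, 10.07, 10.32 and 10.33 at week 2 and 9.75, 9.97 and 9.59 at week 3. The week 3 arrays lay below all healthy and all week 2 arrays, but 1 array of week 1 lay within their range. Week 3 minus healthy was -0.44 (SE 0.14, interval -0.78 to -0.11), or 0.74 times the healthy signal, with an unadjusted p of 0.0165 and an adjusted p of 0.140. Week 3 minus week 2 was -0.47 (SE 0.14, adjusted p = 0.148). These were the largest differences of any member.

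Most fibroblast genes, but not the collagens, were lower at week 3, as Ednrb and Fibin were, and the mean of the list was already lower at week 1. The mean signal of the 11 fibroblast genes was between 11.72 and 11.77 in healthy lungs, 10.96 and 11.07 at week 1, 10.53 and 10.96 at week 2 and 10.75 and 10.94 at week 3. Pdgfra, the gene of the CD140a antigen that the sort removed, averaged 9.66 at week 3, against 11.91 in healthy lungs, the largest fall of the list (-2.25, adjusted p = 0.00462). The collagen genes Col1a1, Col1a2 and Col3a1 differed from healthy by 0.18, 0.00 and -0.06 at week 3 (adjusted p = 0.587, 0.989 and 0.798). Against week 2, the fibroblast genes went both ways at week 3, where Ednrb and Fibin had -0.30 and -0.47. Col1a1 rose by 1.29 (adjusted p = 0.0176), while Tcf21 and Inmt had -0.78 and -0.81 (adjusted p = 0.128 and 0.099). The median difference of the list from healthy was -0.67 at week 1, where Ednrb and Fibin had 0.08 and -0.11, and -1.12 at week 3. The mean of the 10 mural cell genes was between 9.49 and 9.64 in healthy lungs, 8.59 and 8.82 at week 1, 8.62 and 8.73 at week 2 and 8.90 and 8.96 at week 3. The part of these cells in the values of Ednrb, Tbx2 and Fibin was not tested. The log2 signal of the 3' Gapdh control probes minus that of the 5' ones, a sign of RNA length, was 0.52 ± 0.16 in healthy lungs, 0.47 ± 0.06 at week 1, 0.35 ± 0.05 at week 2 and 0.31 ± 0.08 at week 3 (SD, n = 3), and its part was not tested either.

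Among the general capillary markers, Gpihbp1 anchors lipoprotein lipase on the capillary wall. Its signals were 12.68, 12.72 and 12.82 in healthy lungs, 12.93, 13.02 and 12.94 at week 1, 12.80, 12.98 and 12.92 at week 2 and 12.88, 12.71 and 12.84 at week 3. The week 1 arrays lay above all healthy arrays, and those of weeks 2 and 3 overlapped them. The differences from healthy were 0.23 (SE 0.11, interval -0.04 to 0.49, adjusted p = 0.612) at week 1, 0.16 (interval -0.08 to 0.40) at week 2 and 0.07 (interval -0.18 to 0.32) at week 3.

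Kit encodes the receptor tyrosine kinase for stem cell factor. Its signals were 11.88, 11.63 and 11.53 in healthy lungs, 11.94, 11.94 and 11.97 at week 1, 11.62, 11.83 and 11.68 at week 2 and 11.89, 12.14 and 12.19 at week 3. The arrays of weeks 1 and 3 lay above all healthy and all week 2 arrays, with 1 week 3 array only just above the highest healthy one. Week 3 minus healthy was 0.39 (SE 0.14, interval 0.06 to 0.71), or 1.31 times the healthy signal, with an unadjusted p of 0.0263 and an adjusted p of 0.177. Week 1 minus healthy was 0.27 (SE 0.13, interval -0.04 to 0.57, adjusted p = 0.602). The second probe set of Kit had 10.66, 10.60 and 10.79 at week 3, against 10.33, 10.16 and 10.62 in healthy lungs. Its groups overlapped, and the difference was 0.32 (SE 0.14, adjusted p = 0.273).

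Some mast cell and basophil genes, but not all, were higher at week 3, when Kit was at its highest. Of 8 such genes, 2 rose at week 3, Ms4a2, a chain of the high-affinity IgE receptor, by 1.57 (adjusted p = 0.0274) and Mcpt8, a basophil protease, by 1.02 (adjusted p = 0.0284). The mean of the list was between 8.30 and 8.55 at week 3, against 7.82 and 7.87 in healthy lungs, and between 7.82 and 7.97 at week 1. Cpa3, a mast cell protease, had 8.39, 8.33 and 7.60 at week 3, against 7.23, 7.24 and 6.98 in healthy lungs (adjusted p = 0.0606). Fcer1a and Hdc differed by 0.61 and 0.22 (adjusted p = 0.0572 and 0.365). The mast cell proteases Mcpt4 and Tpsb2 differed by -0.03 and 0.20 (adjusted p = 0.927 and 0.465). Gata2, also on the list, averaged 11.98 at week 3 and 12.24 in healthy lungs, a difference of -0.25 (adjusted p = 0.268). Whether that strong signal comes from ECs or from other cells was not tested. The part of mast cells and basophils in the signal of Kit was not tested.

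Plvap encodes the protein of the diaphragms that span endothelial fenestrae and caveolae. Its signals were 12.72, 12.71 and 12.52 in healthy lungs, 12.62, 12.70 and 12.58 at week 1, 12.58, 12.48 and 12.55 at week 2 and 12.71, 12.46 and 12.57 at week 3. All groups overlapped with healthy. The differences from healthy were -0.02 at week 1, -0.11 at week 2 and -0.07 at week 3, the last with an interval of -0.35 to 0.21 (adjusted p = 0.788). The venous gene Ackr1, an atypical chemokine receptor, rose by 1.62 at week 3 (SE 0.24, adjusted p = 0.0166), and it was the only one of the 8 venous genes that passed. Its part in the signal of Plvap was not tested.

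Cd93 encodes a transmembrane glycoprotein of ECs that binds the matrix protein encoded by Mmrn2. Its signals were 13.36, 13.26 and 13.35 in healthy lungs, 13.44, 13.42 and 13.42 at week 1, 13.30, 13.29 and 13.32 at week 2 and 13.32, 13.32 and 13.35 at week 3. The week 1 arrays were above all others, and weeks 2 and 3 overlapped with healthy. The differences from healthy were 0.10 (interval -0.15 to 0.36) at week 1, -0.02 at week 2 and 0.01 (interval -0.22 to 0.23, adjusted p = 0.980) at week 3. The other 4 probe sets of Cd93 differed by 0.03 to 0.19 at week 3, and none passed. Of 10 leukocyte genes, Fcer1g rose by 0.60 and Cd68 fell by 1.18 at week 3, and their part in the signal of Cd93 was not tested.

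**Figure D3:**
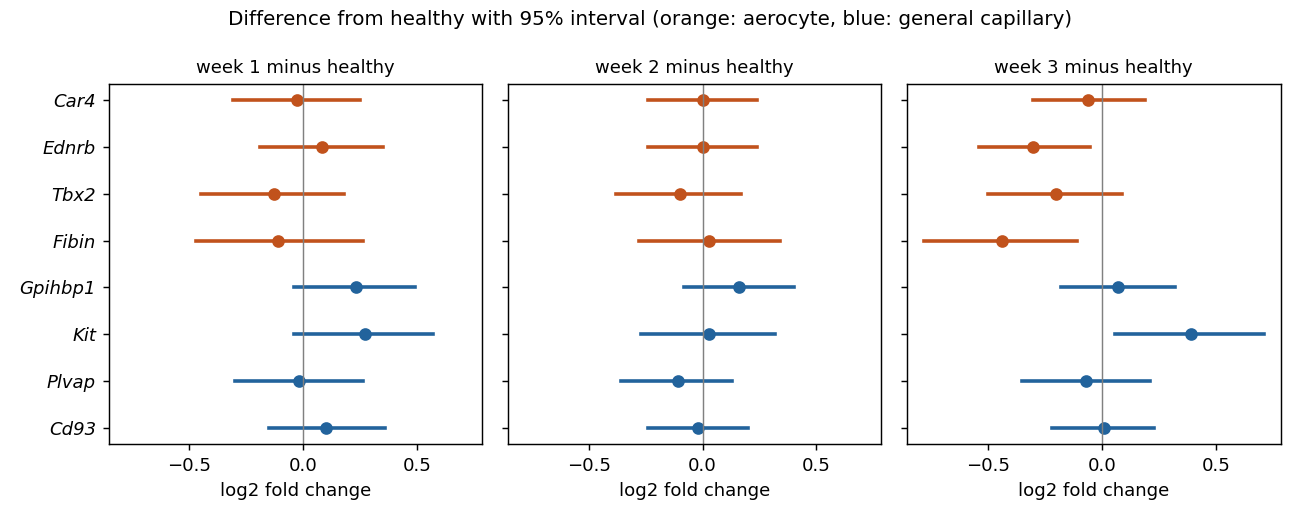
Log2 fold change of each member (week minus healthy, points) with its 95% interval (lines) at weeks 1, 2 and 3, orange for aerocyte and blue for general capillary markers. All intervals at weeks 1 and 2 include 0, and at week 3 those of Ednrb (-0.54 to -0.05), Fibin (-0.78 to -0.11) and Kit (0.06 to 0.71) do not, although none passed after adjustment.

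Over the whole time course, limma's moderated F test over the 4 groups passed 0 of 8 members, against 5.25% of all genes, and 3 of 8 at an unadjusted p below 0.05, against 19.7%. The smallest adjusted p was 0.147 for Ednrb, followed by 0.171 for Kit and 0.209 for Fibin. Between weeks, 0 of 8 passed for week 2 against week 1 (0% of all genes), for week 3 against week 2 (2.10%) and for week 3 against week 1 (0.841%), and 0 (6.55%), 3 (16.9%) and 1 (13.5%) had an unadjusted p below 0.05. Arrays did not overlap for 2 (13.1% of all genes), 3 (25.4%) and 3 (21.7%) of the 8. The 3 at an unadjusted p below 0.05 for week 3 against week 2 were again Fibin, Ednrb and Kit, the last with a difference of 0.36 (SE 0.12, adjusted p = 0.198). In the plot of fold changes with intervals, the lowest bound at week 3 was -0.78 and the highest was 0.71.

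At week 3 the aerocyte markers had a median below 0, and the median of the general capillary markers was close to that of all genes. The median difference from healthy was -0.25 over the 4 aerocyte markers and 0.04 over the 4 general capillary markers, against 0.03 over all genes. At week 1 these medians were -0.07 and 0.16, against 0.05 over all genes, and at week 2 both were 0.00, against 0.03. All 4 aerocyte markers had a week 3 mean below healthy, and 3 of 4 general capillary markers had one above. The mean deviation of the aerocyte markers from healthy was -0.28, -0.12 and -0.35 in the week 3 arrays, against -0.03, 0.04 and -0.01 in the healthy arrays. That of the general capillary markers was 0.10, 0.06 and 0.14 at week 3, against 0.06, -0.02 and -0.04 in healthy lungs. The aerocyte arrays of week 3 were all below the healthy ones, while the general capillary values of week 3 overlapped the healthy ones. At week 1 the general capillary values were 0.13, 0.17 and 0.13, all above the healthy ones. The aerocyte values of week 1 were -0.17, -0.07 and 0.09, and they overlapped both the healthy and the week 3 ones. The aerocyte mean minus the general capillary mean was -0.19 ± 0.14 at week 1, -0.03 ± 0.06 at week 2 and -0.35 ± 0.16 at week 3 (SD, n = 3), around a healthy mean set to 0 with an SD of 0.08. Fibin, Ednrb and Kit had the largest differences behind the week 3 value, followed by Tbx2, while Car4, Plvap, Cd93 and Gpihbp1 each differed from healthy by 0.07 or less. This shift is a description with no test.

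**Figure D4:**
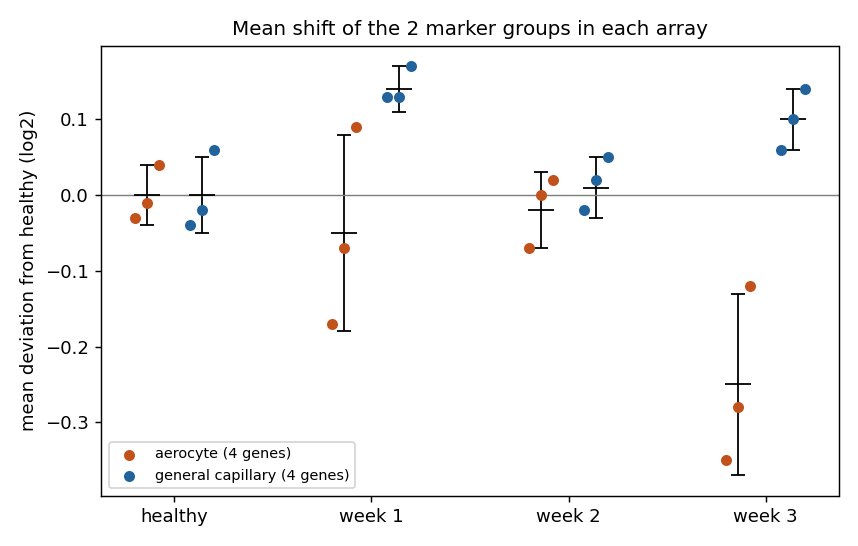
Mean deviation from the healthy mean (log2, vertical axis) over the 4 aerocyte markers (orange) and the 4 general capillary markers (blue) in each array of healthy lungs and weeks 1, 2 and 3, with the mean and SD of 3 arrays in black. The orange points of week 3 lie between -0.35 and -0.12 and the blue ones between 0.06 and 0.14.

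Other markers of the same cells gave a mixed picture. Of 11 further aerocyte markers, 1 rose and 1 fell at week 3 against healthy, with a median difference of -0.09, and none passed at week 1 or 2. Whether past the threshold or not, 9 of the 11 had a week 3 difference below 0 and 2 had one above. Of 8 further general capillary markers, 0 rose and 1 fell, with a median of -0.02. Of all genes, 2.38% rose and 2.63% fell in that comparison.

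Apln, which encodes the peptide apelin and is also made by sprouting tip cells, had 11.59, 11.92 and 11.94 at week 3, against 10.80, 10.89 and 11.07 in healthy lungs. The groups did not overlap, and Apln rose by 0.89 (SE 0.14, adjusted p = 0.0189), and by 0.71 against week 2 (adjusted p = 0.0478). Leaving out 1 array at a time kept the week 3 minus healthy difference between 0.83 and 1.01, with an adjusted p of 0.0239 to 0.0722 and 2 of 6 runs past the threshold. Against week 2 it passed in 0 of 6 such runs (adjusted p 0.0595 to 0.142). Aplnr, its receptor and a general capillary marker, had 12.50, 12.47 and 12.44 at week 3, against 12.12, 12.05 and 12.16 in healthy lungs. All week 3 arrays were higher, and the difference of 0.36 (SE 0.10) had an adjusted p of 0.095.

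Rprml, a relative of the cell cycle gene Reprimo, had 10.78, 10.79 and 10.66 at week 3, against 11.35, 11.49 and 11.31 in healthy lungs. The groups lay apart, and Rprml fell by 0.64 (SE 0.11, adjusted p = 0.0247). It also fell against week 2, by 0.67 (adjusted p = 0.0304). Without any 1 array its adjusted p at week 3 against healthy was 0.058 to 0.0831, and it passed in 0 of 6 such runs. Against week 2 the range was 0.0684 to 0.104, with 0 of 6 past the threshold. Emp2 and Pmp22, related membrane proteins that were singled out after their values were seen, differed by -0.47 (adjusted p = 0.0678) and -0.38 (adjusted p = 0.153). Emp2 is also expressed in type 1 alveolar cells, whose 7 genes had a median difference of -0.95 at week 3 and a mean between 9.52 and 9.83, against 10.49 and 10.64 in healthy lungs. Their part in the signal of Emp2 was not tested.

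Glp1r, the receptor for glucagon-like peptide 1 and a general capillary marker, had 12.47, 12.52 and 12.64 at week 3, against 13.11, 12.96 and 13.11 in healthy lungs. The groups did not overlap, and Glp1r fell by 0.52 (SE 0.11, adjusted p = 0.0453). Its adjusted p was 0.087 to 0.131 when 1 array was left out, so it passed in 0 of 6 such runs.

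**Figure D5:**
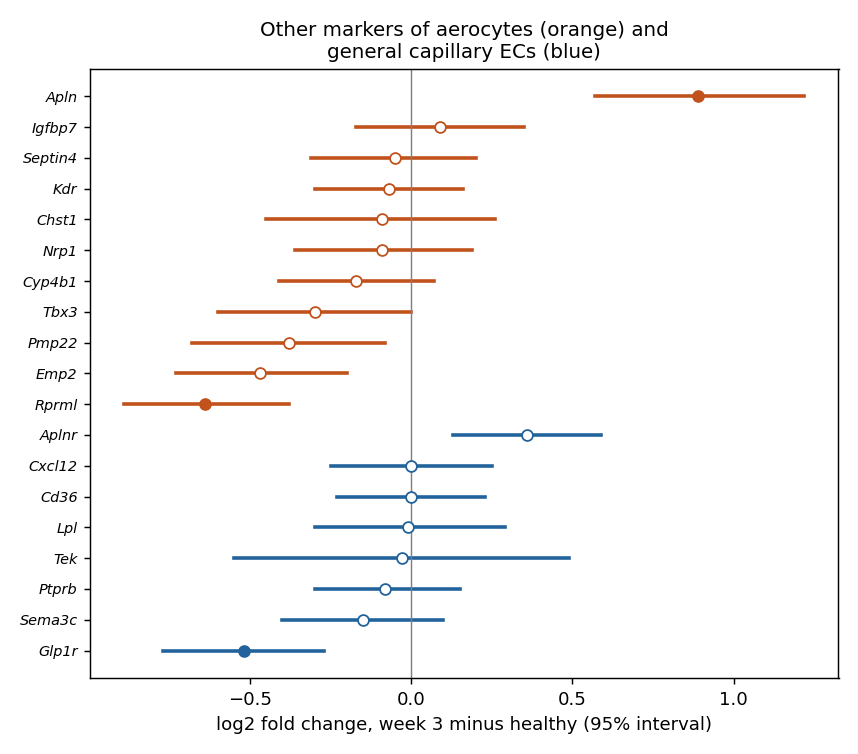
Log2 fold change at week 3 minus healthy (points) with its 95% interval (lines) for 11 further aerocyte markers (orange) and 8 further general capillary markers (blue), each group ordered by its value. Filled points passed limma's adjusted p below 0.05, which were Apln at 0.89, Rprml at -0.64 and Glp1r at -0.52.

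No ligand or binding partner of the members passed the threshold, and the counts were near the shares of all genes. Of 15 partner genes measured, 0 passed by limma in any comparison, against 5.01% of all genes at week 3 against healthy. In that comparison 3 had an unadjusted p below 0.05, against 21.4% of all genes. Edn1, the endothelin that binds Ednrb, differed by -0.09 at week 3 (interval -0.35 to 0.18, adjusted p = 0.717). Kitl, the stem cell factor that binds Kit, differed by -0.03 (interval -0.33 to 0.27, adjusted p = 0.916). Lpl, the lipase that Gpihbp1 anchors, differed by -0.01 (interval -0.30 to 0.29), and Mmrn2, the partner of Cd93, by 0.03 (interval -0.20 to 0.27). These intervals include differences of up to about the size measured for Ednrb, so they do not show equal levels. The 3 at an unadjusted p below 0.05, named after their values were seen, were Pdgfb at 0.42, Angptl4 at -0.73 and Slc4a4 at -0.99, with adjusted p of 0.0932, 0.147 and 0.127.

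The genes whose course was most like that of Car4, by the root mean square difference of log2 values centred per gene over 12 arrays, were Anxa3 and Srgn (0.0351 each), Cfl1 (0.0450), Elovl5 (0.0468) and Atp5h (0.0491). Those most like Plvap were Gm8369 (0.0499), Pggt1b (0.0561), Lrrc23 (0.0563), Hipk3 (0.0571) and Kcnv2 (0.0609). No other member was among these 5 for either gene. With group means that spanned 0.06 for Car4 and 0.11 for Plvap, nearness here means a similarly flat course. It does not mean a similar level. Gm8369, Kcnv2 and Lrrc23 had mean signals of 5.96, 6.05 and 8.01, below the array medians of 8.13, while Pggt1b and Hipk3 had 12.07 and 12.38. Whether the 3 weak signals are flat because they lie low on the scale was not tested.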

How the data were processed

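The deposited log2 values, 1 per probe set and array, were made by the authors from the scanned arrays by robust multiarray average (background correction, quantile normalization, summary of probes) in Chipster, with values from 5.27 to 14.1, and were not changed. Of 45101 probe sets, 64 array controls were set aside. Genes came from platform annotation, with 1 symbol for 34945 probe sets. Each pair of groups was fitted by itself in limma (version 3.58.1, R 4.3.3) with empirical Bayes, as in the study's methods, with Benjamini-Hochberg adjustment over 45037 probe sets. Limma gave all adjusted p-values, and the code was tested on simulated data. P-values set each difference against the spread between arrays labelled as biological replicates, with the variance moderated by empirical Bayes over all probe sets. Precision is limited by 3 arrays a group. The remaining steps ran in Python 3.11.15. Members, lists (written from general knowledge) and tests were chosen with earlier results of these data known. Named genes are all members, listed genes past the threshold, ligands or partners of members, the 5 genes nearest to Car4 and Plvap, and markers of other cells that share a member. Alternatives were 1 fit of all groups, a replicate block, leaving out each array, repeated normalization, median centring, a filter on low signals, other probe set choices, a trended and robust variance and array weights.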

Additional observations from a re-analysis of the deposited data

How the results depend on the processing

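The count of 0 of 8 members past the threshold held under each alternative run except a trended and robust variance, which gave 1 member, Ednrb, for week 3 against healthy (adjusted p = 0.041), for week 3 against week 1 (adjusted p = 0.0489) and in the F test over the 4 groups. The fit with the replicate block gave 0 members in each comparison. Same-numbered arrays did not deviate together over all probe sets (correlation of deviations -0.10 to 0.06 in 18 pairs, 0 above 0.1). This cannot exclude a pairing that touches only a few genes. The block gave Rprml and Glp1r adjusted p of 0.0765 and 0.121 at week 3 against healthy, and Rprml and Apln 0.0963 and 0.136 against week 2. Without _x_at, _s_at and _a_at probe sets, Kit had no value, Glp1r had 0.0519 at week 3 against healthy and Apln 0.0544 against week 2. With 1 array left out, 0 members passed in any comparison, and the aerocyte minus general capillary shift ranged from -0.43 to -0.28 at week 3. Of 714 member differences under alternatives, 685 kept direction and side of the threshold, 2 moved past it and 27 turned sign, all of them close to 0. With the mean of all probe sets of a gene, week 2 minus healthy turned to 0.02 for Car4 and 0.04 for Cd93. The rest turned with 1 array left out: week 1 minus healthy ranged from -0.08 to 0.02 for Car4 and from -0.08 to 0.02 for Plvap, week 2 minus healthy from -0.05 to 0.05 for Car4, -0.04 to 0.06 for Ednrb, -0.06 to 0.11 for Fibin and -0.05 to 0.13 for Kit, and week 3 minus healthy from -0.02 to 0.02 for Cd93. Week 2 minus week 1 ranged from -0.01 to 0.08 for Car4 and -0.07 to 0.11 for Tbx2, week 3 minus week 2 from -0.02 to 0.10 for Plvap, and week 3 minus week 1 from -0.06 to 0.02 for Car4 and -0.12 to 0.01 for Plvap. The cause of these moves was not tested. With 3 arrays a group the 95% intervals of single members, which are not adjusted, reached 0.20 to 0.38 to either side. A difference smaller than its own half-width has an interval that includes 0. The adjusted threshold is stricter, so these widths are not its limit of detection. Larger member differences, such as -0.47 for Fibin at week 3 minus week 2, did not pass after adjustment either.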
